A study of Mus musculus with 8 samples.

Results

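Copy number was examined at 5 genes that drive growth in liver cancer: Myc, Met, Egfr, Vegfa and Tert. Each gene was represented by the array probes within 0.5 Mb of its position on the mouse genome build mm9, which gave 5 of 2533 windows of 1 Mb and 397 of the 170183 probes on the autosomes and X. There were 8 arrays. On each, genomic DNA of 1 liver tumor from a male FAH-/- mouse (Cy5) was hybridised with DNA pooled from the livers of 6 male FAH+/+ littermates (Cy3). FAH-/- mice lack the last enzyme of tyrosine breakdown and depend on the drug NTBC, and these mice had been held on 2.5% of the usual 7.5 mg/L for between 6 and 12 months. Strain and age at sampling are not given in the sources used here. The tumors, numbered 1 to 8 in the order of deposition, form a single group, and the reference is a single pool, so spread between control mice is in no error given here. No normal liver of the tumor mice was hybridised. Each sample is bulk tumor DNA, in which fewer changed cells and fewer extra copies per cell cannot be told apart.

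Amplification of a growth gene raises its copy number and can raise its expression. Tumors reach extra copies either by gaining a whole chromosome, which carries many other genes along, or by focal amplification, in which a short stretch around the gene is copied many times. Myc encodes a transcription factor that drives growth and proliferation. Met and Egfr encode receptor tyrosine kinases that bind hepatocyte growth factor and the EGF family of ligands, both mitogens of hepatocytes. Vegfa encodes the main growth factor of blood vessels, and Tert the catalytic subunit of telomerase. In human liver cancer, MYC, MET, VEGFA and TERT are known targets of copy number gain.

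The question put to each gene was therefore whether it stood above its own chromosome in any tumor. On the scale that removed a probe pattern shared by all arrays, 0 of 40 pairs of gene and tumor lay 0.2 or more (log2) above the rest of the chromosome. Of all pairs of window and tumor 0.503% did, so a count of 0 does not set these genes apart. The highest of the 40 was 0.16. Removing the pattern also takes out any difference from the chromosome that most tumors share. With the pattern kept, 2 of 40 pairs lay that far above, beside 5.04% of all pairs. On the scale with the pattern removed, changes at 4 of the genes went with the chromosome each lies on. Myc was high with chromosome 15 in 5 tumors, and Tert low with chromosome 13 in tumors 1 and 6. Vegfa was high with chromosome 17 in tumor 5, and Met low with chromosome 6 in tumor 3. Tert in tumor 8 was past -0.2 as well, at -0.24, where the rest of its chromosome was at -0.15. Egfr lay between -0.030 and 0.090 in all 8 tumors on that scale.

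The windows were well covered. On mm9, Myc (gene ID 17869) was covered by 65 probes at chr15:61320001-62320000, Met (17295) by 90 at chr6:16970001-17970000, Egfr (13649) by 71 at chr11:16230001-17230000, Vegfa (22339) by 88 at chr17:45660001-46660000 and Tert (21752) by 83 at chr13:73270001-74270000. The median distance between probes was 12.8 kb around Myc and 9.4 to 11.3 kb around the other genes, and the widest gap was 66.6 kb, in the Myc window. A median 1 Mb window of the array held 70 probes. The exons and introns under single probes were not placed, because no gene models on mm9 were at hand, so a window also holds neighbouring genes. In the RefSeq table on GRCm38, the next genes beside the members were Pvt1 after Myc, Cav1 and Capza2 around Met, Sec61g before Egfr, Mrps18a after Vegfa and Clptm1l before Tert. On each array, 97.0% to 99.9% of spots passed the software's background mark in the red and green channel alike, and the number of arrays limits the precision.

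A level is here the median log2 ratio of tumor over pool across the probes of a window, with the commonest level of autosomal 1 Mb windows in that tumor set to 0. One extra copy of 2 in every cell would give 0.58, and loss of one copy -1. Levels do not give copy numbers, since the share of tumor cells was not measured. All values are given with the probe pattern kept and, where named so, with it subtracted. The pattern is a set of log2 ratios repeated from array to array: after chromosome medians were removed, single probes correlated at 0.90 to 0.96 between tumors 1 to 6 and at 0.71 to 0.83 in pairs with tumor 7 or 8. Its median was -0.27 over the Vegfa probes and 0.15 over the Tert probes, against -0.031, 0.051 and 0.050 for Myc, Met and Egfr. Of all windows, 99.6% had a pattern as high as that of Vegfa or higher, and 8.09% as high as that of Tert. Because the pattern was taken after chromosome medians, subtraction leaves changes of whole chromosomes in place, and takes out any difference between a window and its chromosome that most tumors share. The limma test of that difference across tumors is therefore void on the subtracted scale, where it called 0 windows by adjusted p and also 0 at an unadjusted p under 0.05. For the level limma also called 0 windows there by adjusted p, and before adjustment 4.03% of windows passed 0.05 as higher and 9.08% as lower. Differences on that scale are read tumor by tumor, and their means are given as descriptions.

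**Figure D1:**
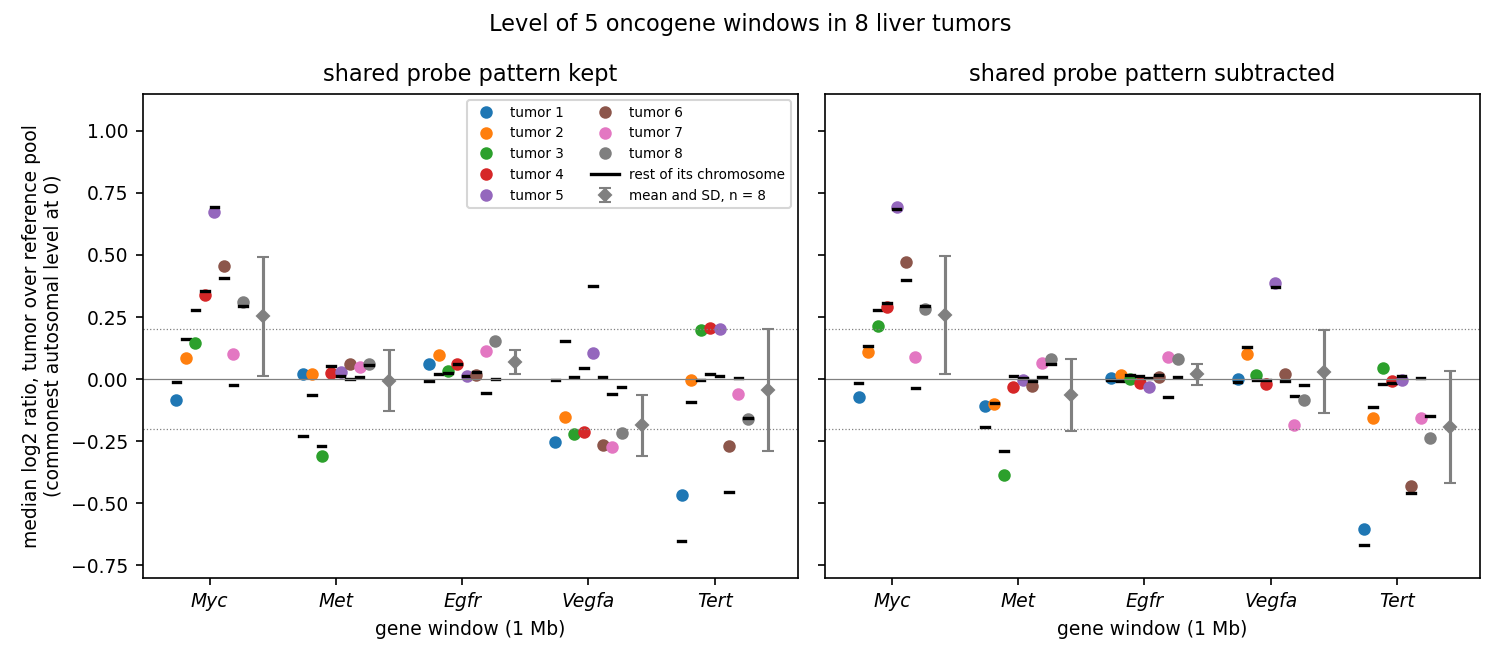
Median log2 ratio (y axis) of the 1 Mb window around each gene (x axis) in tumors 1 to 8, with the probe pattern kept (left) and subtracted (right); black bars mark the rest of that tumor's chromosome, grey diamonds the mean with SD (n = 8), and dotted lines 0.2 and -0.2. Myc reached 0.67 in tumor 5 and Tert -0.47 in tumor 1 with the pattern kept, and with it subtracted the dots lie close to their bars.

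Myc, the transcription factor, had the highest mean level of the 5 genes, 0.25 ± 0.24 (SD, n = 8). Its level was -0.083 in tumor 1, 0.086 in tumor 2, 0.15 in tumor 3, 0.34 in tumor 4, 0.67 in tumor 5, 0.46 in tumor 6, 0.099 in tumor 7 and 0.31 in tumor 8. In tumor 5 this is a ratio of 1.59 over the pool. Tumors 4, 5, 6 and 8 were thus at 0.2 or above, and tumor 1 alone was below 0. Subtracting the pattern brought tumor 3 to 0.21, just past that line, and the mean to 0.26. In single tumors 3.99% to 20.3% of all windows were at 0.2 or above with the pattern kept. Across the tumors the mean level was above 0 in limma's test over 2533 windows (adjusted p = 0.0381), where 6.91% of windows were called higher. With the pattern subtracted the adjusted p was 0.125 for an unadjusted p of 0.00465, against 0.00479 with it kept, so the p at Myc hardly moved and the adjustment over all windows did. The call also ended after normexp background correction (0.0679), and without tumor 2 (0.0623), 3 (0.0611), 4 (0.0931), 5 (0.0602), 6 (0.0873) or 8 (0.0885). The mean was 0.12 on the slide of tumors 1 to 4 and 0.38 on the slide of tumors 5 to 8, and on neither slide alone was it called (adjusted p = 0.342 and 0.273 in limma).

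Against the rest of chromosome 15, the Myc window was not called higher (called means an adjusted p under 0.05). Its difference from the chromosome was -0.016 ± 0.081 (SD, n = 8), with a limma 95% interval of -0.073 to 0.041 (adjusted p = 0.637; 27.4% of windows were called higher and 23.7% lower in this test). It was called lower with only the probes within 0.25 Mb (-0.068, adjusted p = 0.0312 in limma) and after normexp correction (-0.065, adjusted p = 0.0478 in limma). The chromosome itself was at 0.28 in tumor 3, 0.35 in tumor 4, 0.69 in tumor 5, 0.41 in tumor 6 and 0.29 in tumor 8. In tumor 5, the tumor with the most Myc, the window was at -0.022 from its chromosome and ranked 52 of 102 windows there. The highest difference was 0.12 in tumor 7, a tumor whose chromosome 15 was at -0.024, and 16.1% of all windows were as high above their chromosomes there. After subtraction the 8 differences ran from -0.063 in tumor 3 to 0.13 in tumor 7. On that scale Myc ranked first of 102 windows on chromosome 15 in tumor 6, at 0.073 above it. Of all windows of that tumor, 1.18% were as high above their chromosomes. With the pattern kept Myc ranked 33 there. The median of the 12 probes within 0.1 Mb of Myc lay between -0.32 and 0.028 from the chromosome with the pattern kept and between -0.11 and 0.11 with it subtracted.

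Met, the receptor for hepatocyte growth factor, was at or near 0 in all tumors but one. Its level was 0.019, 0.023, -0.31, 0.024, 0.028, 0.060, 0.050 and 0.059 in tumors 1 to 8. Tumor 3 was thus below -0.2 and apart from the other 7, and 26.1% of all windows of that tumor were at -0.2 or below. The mean was -0.0055 ± 0.12 (SD, n = 8; adjusted p = 0.941 in limma), and without tumor 3 it was 0.038. On the subtracted scale tumor 3 was at -0.39, and the other 7 lay between -0.11 and 0.081. In tumor 3 the 21 windows along the 10 Mb on either side ran from -0.42 to -0.30 on that scale, so the whole stretch around Met was low.

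Tumor 1 gave the highest difference of any gene from its chromosome. The Met window lay 0.25 above the rest of chromosome 6 with the pattern kept, where 7.86% of all windows of tumor 1 were at least 0.2 above theirs. The chromosome median was -0.23, whereas Met itself was at 0.019. Against the probes between 0.5 and 10 Mb on either side, the Met window was at -0.030. Once the pattern was subtracted, Met was at 0.087 from the chromosome and -0.069 from those flanks. Tumor 1 thus had chromosome 6 lower elsewhere, and Met did not stand above its surroundings. With the pattern subtracted its level of -0.11 was the lowest of the 21 windows within 10 Mb, which reached up to 0.021. Over the 8 tumors the difference from the chromosome was 0.048 ± 0.091 (SD, n = 8; limma 95% interval -0.014 to 0.11, adjusted p = 0.176). It was 0.020 without tumor 1 and -0.024 against the flanks. It passed the threshold with the mean of the probes in place of their median (0.11, adjusted p = 0.00469 in limma).

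Egfr, the receptor of the EGF family, varied least. Its level was lowest in tumor 5 at 0.014, had a median of 0.060 and was highest in tumor 8 at 0.15. No tumor reached 0.2 in either direction, although the level was above 0 in 8 of 8 tumors (mean 0.069 ± 0.049 SD, n = 8). That mean missed the threshold in limma (adjusted p = 0.201, unadjusted p = 0.0840, 95% interval -0.011 to 0.15). An exact permutation test that flips signs (two-sided, not adjusted over windows) gave 0.00781, the smallest p possible with 8 tumors. After subtraction the levels ran from -0.030 to 0.090, with 6 of 8 above 0, and the sign-flip test gave 0.320. With the pattern kept but the array median as 0, tumor 5 was at -0.089. Against chromosome 11, which stayed between -0.056 and 0.060 in every tumor, Egfr was 0.058 ± 0.071 (SD, n = 8) higher (adjusted p = 0.0619 in limma). Alternative settings moved this p across 0.05: it was 0.0371 after normexp correction, 0.0478 with only spots well above background and 0.0316 against the flanks. Tumors 7 and 8 held the highest differences, 0.17 and 0.15, and 8.69% and 6.40% of all windows there were as high above their chromosomes. The same tumors had 0.16 and 0.072 with the pattern subtracted, where 5.01% and 13.6% of windows were as high. Against the flanks on that scale they were at 0.065 and 0.029. The mean difference from the chromosome after subtraction was 0.022 ± 0.066 (SD, n = 8).

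**Figure D2:**
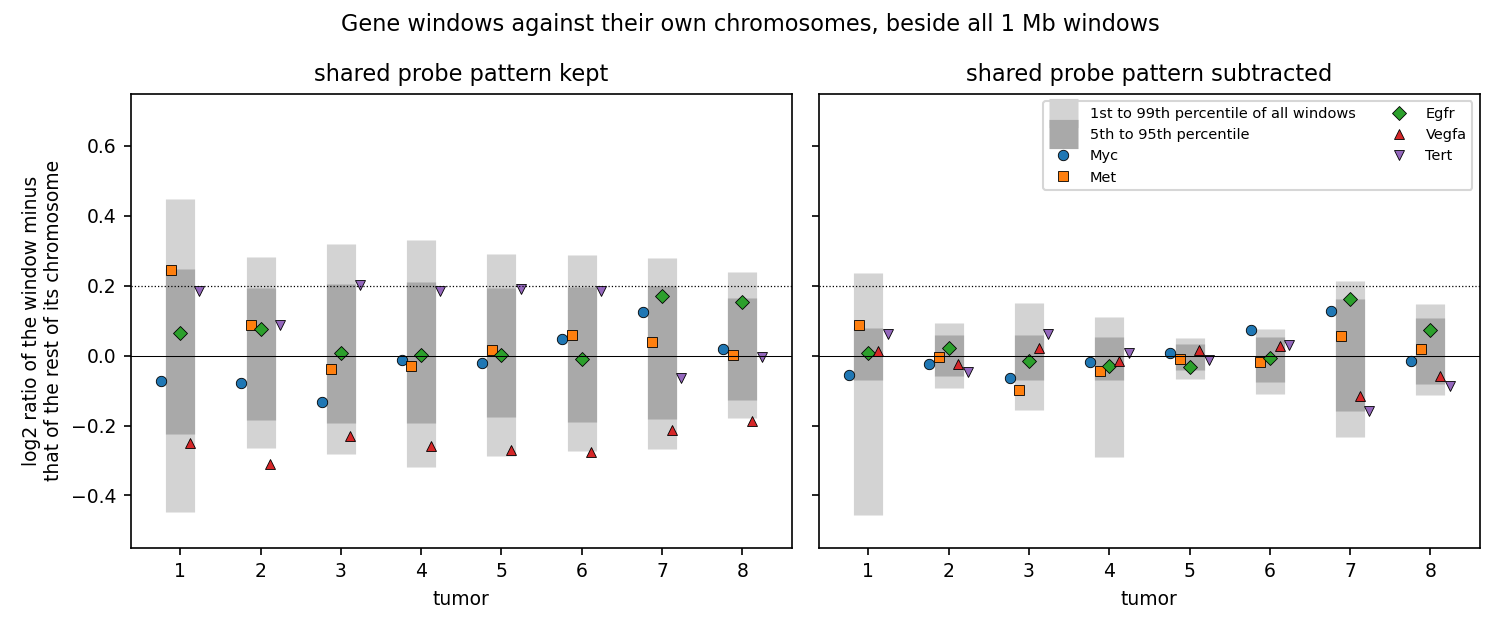
Log2 ratio of each gene window minus that of the rest of its chromosome (y axis) by tumor (x axis), with the probe pattern kept (left) and subtracted (right); grey bars span the 1st to 99th and 5th to 95th percentiles of all 2533 windows in that tumor, and the dotted line is 0.2. Vegfa lies low in all 8 tumors only where the pattern is kept, and no gene passes 0.2 where it is subtracted.

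Vegfa, the vessel growth factor, was below 0 in 7 of 8 tumors with the pattern kept and in 4 of 8 with it subtracted. With the pattern kept its level was -0.25, -0.15, -0.22, -0.21, 0.10, -0.27, -0.27 and -0.22 in tumors 1 to 8. Tumor 5 alone was above 0 and overlapped no other tumor. The mean of -0.19 ± 0.12 (SD, n = 8) was below 0 in limma (adjusted p = 0.0279, where 9.28% of windows were called lower). Against chromosome 17 the window was at -0.25 ± 0.038 (SD, n = 8), with all 8 tumors between -0.31 and -0.19 (adjusted p = 2.7e-06 in limma, where 23.7% of windows were called lower). On the subtracted scale the level was 0.030 ± 0.17 (SD, n = 8), with 0.39 in tumor 5, 0.10 in tumor 2 and -0.18 in tumor 7. The difference from the chromosome was then -0.017 ± 0.049 (SD, n = 8). The Vegfa probes carried a pattern median of -0.27, and a change common to all 8 tumors and a property of the probes cannot be told apart here. In limma the call of the level was lost without tumor 2, 4, 6 or 8 (adjusted p of 0.0615, 0.0658, 0.0515 and 0.065), with the mean of the probes (0.0815), and on each slide alone (0.118 and 0.347).

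Vegfa was higher in tumor 5 than in any other tumor on both scales. There chromosome 17 was at 0.37 with the pattern kept or subtracted, and Vegfa differed from it by 0.016 once the pattern was subtracted. On the subtracted scale the 21 windows around the gene ran from 0.34 to 0.39 in that tumor, against 0.10 to 0.67 with the pattern kept. In tumor 2 they ran from 0.057 to 0.19 around a chromosome at 0.13, again with the pattern subtracted. Tumor 7 had the widest run on the subtracted scale, from -0.23 to 0.11.

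Tert, the catalytic subunit of telomerase, was low in tumors 1 and 6. Its level was -0.47, -0.0025, 0.20, 0.21, 0.20, -0.27, -0.059 and -0.16 in tumors 1 to 8. Tumors 1 and 6 were below -0.2, and tumors 4 and 5 just past 0.2. In tumors 1 and 6, 20.3% and 37.1% of all windows were at -0.2 or below, and in tumors 4 and 5, 16.1% and 20.3% were at 0.2 or above. Subtraction turned the levels to -0.61, -0.16, 0.045, -0.0080, -0.0019, -0.43, -0.16 and -0.24. Tumors 1, 6 and 8 were then below -0.2, no tumor was above 0.2, and tumor 3 alone was above 0. The mean was -0.044 ± 0.25 (SD, n = 8; adjusted p = 0.696 in limma) with the pattern kept and -0.19 ± 0.23 (SD, n = 8) with it subtracted.

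Tert lay above chromosome 13 on the scale with the pattern kept. The difference was 0.12 ± 0.10 (SD, n = 8; limma 95% interval 0.053 to 0.19, adjusted p = 0.00679, with 27.4% of windows called higher and 23.7% lower). With the pattern kept it was 0.18 in tumor 1, 0.088 in tumor 2, 0.20 in tumor 3, 0.19 in tumors 4 and 5, 0.18 in tumor 6, -0.063 in tumor 7 and -0.0037 in tumor 8. After subtraction the mean difference was -0.018 ± 0.077 (SD, n = 8). The Tert probes carried a pattern median of 0.15, and a change common to the tumors and a property of the probes cannot be told apart here. Tumor 3, at 0.201 with the pattern kept, was the only one past 0.2, as were 5.80% of its windows. Tumors 7 and 8 were thus below the other 6, which spanned 0.088 to 0.20, and their arrays also correlated less with the rest. In limma the call was lost with the mean of the probes (0.054, adjusted p = 0.139), after normexp correction (0.090, adjusted p = 0.0714) and on the slide of tumors 5 to 8 alone (0.077, adjusted p = 0.253). Chromosome 13 itself was at -0.65 in tumor 1, -0.45 in tumor 6 and -0.16 in tumor 8. In tumor 8 the Tert window was the lowest of 117 windows on that chromosome with the pattern subtracted, at -0.087 from it. With the pattern kept it ranked 53 of 117 there, at -0.0037 from the chromosome.

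**Figure D3:**
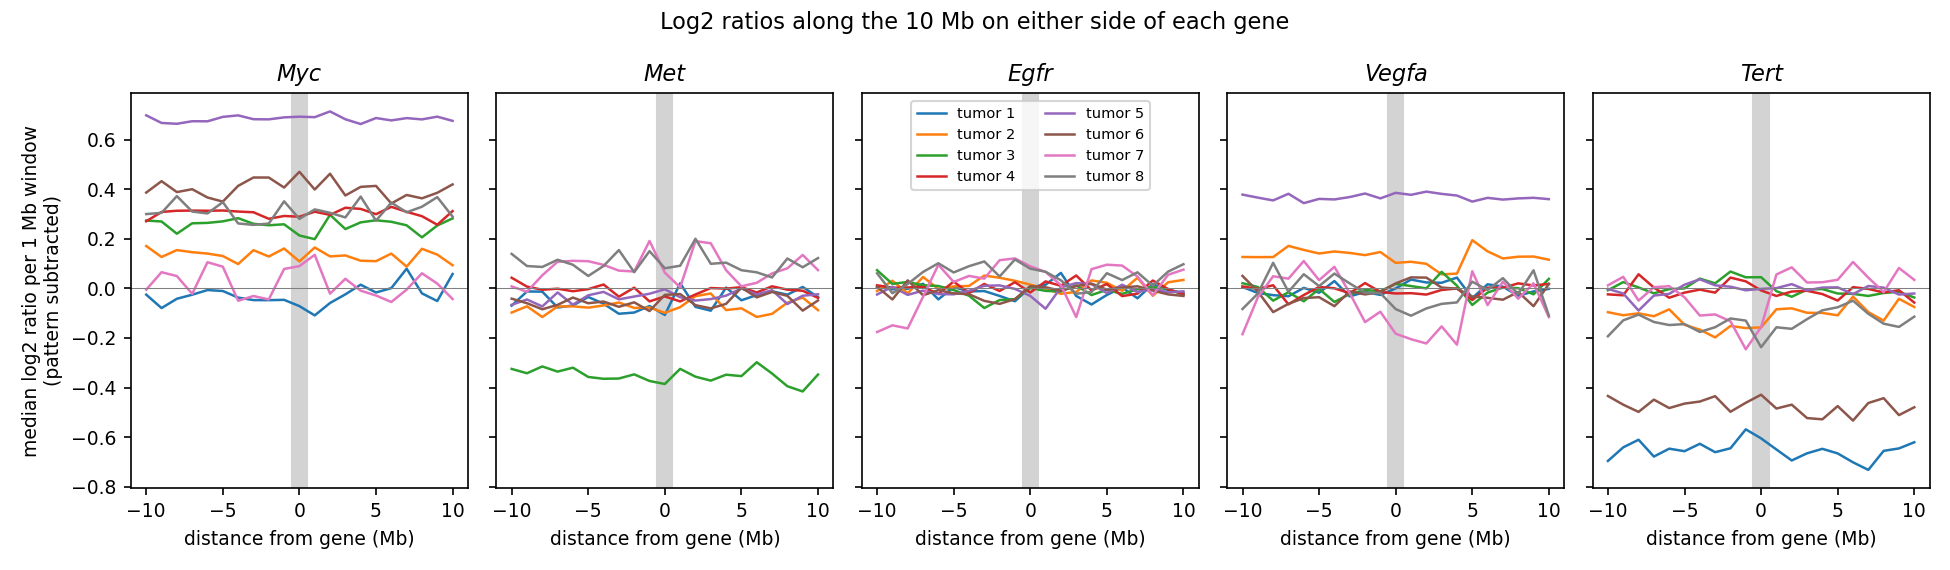
Median log2 ratio of consecutive 1 Mb windows (y axis, probe pattern subtracted) against distance from each gene in Mb (x axis), one line per tumor, with the gene window shaded. Tumors with a changed chromosome keep their level on both sides of the gene: around Myc tumor 5 stays between 0.66 and 0.71 and tumor 6 between 0.34 and 0.47, and around Tert tumor 1 stays between -0.73 and -0.57, whereas tumor 7 runs from -0.25 to 0.11 around Tert, -0.23 to 0.11 around Vegfa and -0.18 to 0.12 around Egfr.

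Counted over all 40 pairs of gene and tumor, 2 lay 0.2 or more above their chromosome with the pattern kept, Met in tumor 1 and Tert in tumor 3, and 7 lay as far below, all of them Vegfa. Among all windows in all tumors, 5.04% were as far above and 3.87% as far below. Subtracting the pattern brought both counts to 0, against 0.503% and 0.913% of windows. Against flanks of 10 Mb, 1 pair was 0.2 or more higher with the pattern kept (4.52% of windows), Tert in tumor 6, and 0 with it subtracted (0.188% of windows). A doubling over the chromosome, 1.0 on the log2 scale, was reached by 0 of 40 pairs and also by 0 of 20264 pairs of window and tumor in the genome, on both scales. The level itself was at 0.2 or above in 6 of 40 pairs (9.32% of all windows and tumors) and at -0.2 or below in 9 of 40 (16.2%), and with the pattern subtracted in 6 (4.36%) and 4 (14.6%).

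A stretch much shorter than the window hardly moves its median, so the highest mean of 5 neighbouring probes was also taken in each window. With the pattern kept it was 1.0 or more above the chromosome in 1 of 40 pairs, Met in tumor 1 at 1.16, where 11.3% of all pairs of window and tumor were. On the subtracted scale this was 0 of 40 pairs, against 0.0197% of all. The highest such stretch of a member was then 0.45 around Met in tumor 1, which 5.13% of that tumor's windows matched or exceeded. The next was 0.42 around Egfr in tumor 2, matched by 1.07% of windows. For Myc the stretch ran from 0.073 to 0.34 with a median of 0.14, for Vegfa from 0.10 to 0.24 and for Tert from -0.020 to 0.24. Shorter stretches were not examined.

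The spread of each gene between tumors was set beside that of its chromosome. For Myc the SD over 8 tumors was 0.24 for the gene level, 0.23 for the rest of chromosome 15 and 0.065 for the difference between them with the pattern subtracted. For Tert these were 0.23, 0.25 and 0.077, for Vegfa 0.17, 0.14 and 0.049, and for Met 0.15, 0.12 and 0.057. In these 4 genes the difference varied least, whereas Egfr had an SD of 0.043 for the gene, 0.030 for the chromosome and 0.066 for the difference.

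**Figure D4:**
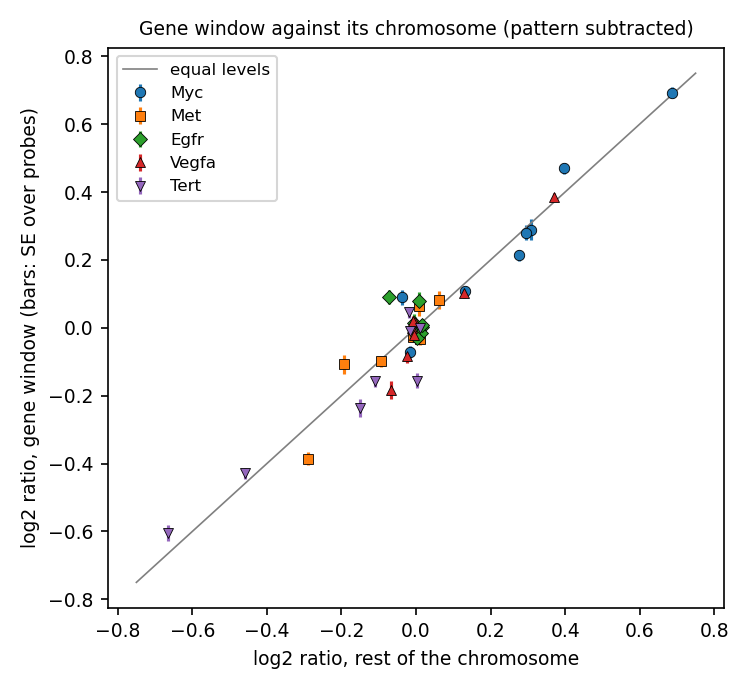
Log2 ratio of each gene window (y axis, bars are the SE over its probes) against that of the rest of its chromosome (x axis) in 8 tumors, pattern subtracted; the line marks equal levels. The 40 points run from Tert in tumor 1 at -0.61 to Myc in tumor 5 at 0.69, with differences from the line between -0.16 and 0.16. The Egfr points do not follow the line: over the tumors the SD was 0.066 for their difference and 0.030 for the chromosome.

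In the order of mean levels with the pattern kept, Myc was followed by Egfr, Met, Tert and Vegfa. Myc exceeded Egfr by 0.18 ± 0.26 (SD, n = 8) and in 5 of 8 tumors. The steps from Egfr to Met (0.074 ± 0.12), Met to Tert (0.039 ± 0.32) and Tert to Vegfa (0.14 ± 0.21; SD, n = 8) were also smaller than their SD. After subtraction Vegfa moved to the place after Myc, 0.23 ± 0.18 (SD, n = 8) below it and lower in 7 of 8 tumors, and Tert was last. Neighbours further down again differed by less than their SD.

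Windows on other chromosomes were ranked by the likeness of their level to each member over the 8 tumors, with the pattern kept. The window most like Myc was chr17:8660001-9660000 (Pearson r = 0.87), followed by single windows of chromosomes 6 and 16 (r of 0.86 and 0.83). For Met the 3 closest lay on chromosome 7, led by chr7:102000001-103000000 (r = 0.97), and chromosome 7 was at -0.29 in tumor 3. Their Spearman coefficients were only 0.21 to 0.60, and tumor 3 was the lowest in Met and in chromosome 7. Egfr was closest to chr10:15000001-16000000 (r = 0.89). Vegfa was closest to chr16:15000001-16000000 (r = 0.98), on a chromosome at 0.73 in tumor 5. Tert was closest to chr4:132000001-133000000 (r = 0.98), and chromosome 4 was at -0.65 in tumor 1 and -0.20 in tumor 6, the tumors in which Tert was low. With the pattern subtracted, the closest windows lay on chromosome 6 for Myc and on chromosomes 7, 10, 16 and 4 again for Met, Egfr, Vegfa and Tert. Each r is the highest of many over 8 tumors, all measured against the same pool, and is a description.

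Partners and relatives of the 5 genes were placed by chromosome only, through the RefSeq table on GRCm38, which named a chromosome for 56 of 56. Chromosome 15 was the only one of 20 at 0.2 or more in at least 2 tumors, and 1 of the 56 genes lay on it, Pvt1, the noncoding RNA gene beside Myc. In the Myc network, 5 of 8 genes lay on chromosomes at -0.2 or less in at least 2 tumors: Max, the obligate partner of Myc, and the paralog Mycn on chromosome 12 (4 tumors), Mycl and the partner Zbtb17 on chromosome 4 (2 tumors), and the antagonist Mxd1 on chromosome 6 (2 tumors). Chromosome 6 also carries Tgfa, an Egfr ligand, Vhl, which marks Hif1a for destruction, Pot1a, which binds telomere ends, and the kinase gene Braf. It was at -0.2 or less in 1 tumor with the pattern subtracted. In tumor 1 chromosome 6 was at -0.23 with the pattern kept, but the windows within 10 Mb of Met had a median of 0.061. The level of a chromosome therefore need not hold for each gene on it. Over all lists 16 of 56 genes were on chromosomes low in at least 2 tumors, beside 6 of 20 chromosomes, and 10 of 56 beside 5 of 20 with the pattern subtracted.

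None of the 6 genes of the Met signalling list lay on such a chromosome. Hgf, its ligand, and Hgfac, which activates the ligand, are on chromosome 5 (-0.22 to 0.079), and the adaptor Grb2 is with Egfr on chromosome 11, as are the receptor Erbb2 and the Myc antagonist Mnt. In the Vegf list Hif1a, which switches Vegfa on in low oxygen, and the ligand Pgf share chromosome 12 (-0.68 to -0.0041), while the receptors Kdr and Flt1 share chromosome 5. In the telomerase list Terc, the RNA template, is on chromosome 3 (-0.30 to 0.034), Tinf2 on chromosome 14 (-0.46 to 0.40) and Dkc1, a telomerase cofactor, on X (-0.47 to 0.064). Fgfr4, the receptor for the hormone Fgf15, shares chromosome 13 with Tert. Cyclin Ccnd1, Fgf15, Hras, Igf2 and Ccne1 on chromosome 7 lay between -0.29 and 0.041, and Ctnnb1, Yap1 and Birc2 on chromosome 9 between -0.43 and 0.032.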

How the data were processed

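DNA of 8 tumors and of the pool was measured on 2-colour Agilent arrays. The authors' software, Agilent Feature Extraction 10.7.3.1 per the submitters' processing notes, corrected each array for background, spatial trend and dye, and its deposited signals are intensity values. The deposited LogRatio and the deposited series table hold log10 of red (tumor) over green, and the table's columns, with medians of -0.0171 to -0.00484, differed from the arrays' own log10 ratios by at most 0.005, so scale, centring and direction are known. The deposited quality marks are 0 or 1, another kind of unit. Per the file headers probe positions are on mm9. Dyes were not swapped, so dye bias does not cancel.

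From these, log2(red/green) was taken for 174305 spots that are not controls, less 115 to 221 outlier spots per array, averaged per probe. Autosomes and X were tiled in 1 Mb windows of at least 10 probes, placed so that each gene window is a tile. Each tumor's 0 is the density peak (bandwidth 0.05) of its autosomal window medians. Windows were tested with limma 3.58.1 in R 4.3.3 (intercept only, two-sided, Benjamini-Hochberg over 2533 windows, threshold 0.05). Per tumor no test is possible with 1 array, and a difference of 0.2 was counted. The shared pattern is the median over arrays of each probe after subtracting chromosome medians, scaled to each array. Alternatives covered pattern, window size, mean, normexp (offset 50), dim spots, the series table, flanks, array-median centring, sign-flip test, slide, thresholds of 0.1 and 0.3, and each tumor left out. Python 3.11.15, numpy 2.4.6, pandas 2.3.3, scipy 1.17.1 and matplotlib 3.10.9 were used. The fits were checked on simulated data with independent noise and no shared probe pattern, so the check does not cover calls that the pattern affects. The members, lists and tests were chosen with earlier results of these data known. The text names all 5 members, list genes sharing a member's chromosome, up to 3 per list on the chromosomes changed in most tumors, and the 3 windows most like each member, and the further list genes were added after their values were seen. A list gene that the rule covers is not reported here by name. The Fah locus was not analysed here.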

Additional observations from a re-analysis of the deposited data

Results flagged for a closer look

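The gap between the extreme tumor and the next was wider than Dixon's 95% critical value for 8 tumors in 4 cases, and chance flags about 1 in 20 groups. Met was lowest in tumor 3 on both scales, at -0.31 with the probe pattern kept and -0.39 with it subtracted. Vegfa was highest in tumor 5, at 0.10 with the pattern kept. Met stood highest over its chromosome in tumor 1, at 0.25 with the pattern kept.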

How the results depend on the processing

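Values are log2, adjusted p is from limma, and the cause of each change was not tested unless named. By construction, subtracting the shared pattern takes out the part of a window's difference from its chromosome that most tumors share: the difference from the chromosome became 0.0041 for Myc, -0.0011 for Met, -0.017 for Vegfa and -0.018 for Tert, and the level 0.030 for Vegfa. The Myc level hardly moved, at 0.26 (adjusted p = 0.125). In single tumors it turned the Vegfa difference to 0.012, 0.020, 0.016 and 0.027 (tumors 1, 3, 5 and 6), the Vegfa level to 0.018 and 0.020 (tumors 3 and 6) and the Tert level to -0.0080 and -0.0019 (tumors 4 and 5). Flanks of 10 Mb together with subtraction, chosen after seeing the data, gave -0.015 for Met, -0.019 for Vegfa and -0.021 for Tert, and in single tumors -0.069 for Met (tumor 1) and 0.0021, 0.027, 0.016 and 0.040 for Vegfa (tumors 1, 3, 5 and 6). Flanks alone gave -0.024 for Met, -0.030 for Met in tumor 1 and 0.049 for Egfr. Probes within 0.25 Mb gave -0.068 for Myc. The mean of the probes gave differences of 0.011 for Myc, 0.11 for Met and 0.054 for Tert, and levels of 0.043 for Met and -0.14 for Vegfa. Normexp gave differences of -0.065 for Myc, 0.059 for Egfr and 0.090 for Tert, and a Myc level of 0.22. Only spots well above background gave 0.062 for Egfr. The array median as 0 gave a Met level of 0.019. The exact sign-flip permutation test of the Egfr level, 0.069, gave p = 0.00781, not adjusted over windows. On the slide of tumors 5 to 8, with fewer samples, the differences were 0.042 for Myc and 0.077 for Tert and the levels 0.38 for Myc, 0.049 for Met and -0.16 for Vegfa, and on the slide of tumors 1 to 4 the levels were 0.12 for Myc and -0.21 for Vegfa.

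Leaving out each tumor gave a Myc difference of -0.036 to 0.00097 (the latter without tumor 3), a Met difference of 0.020 (without tumor 1) to 0.060, and levels of 0.19 to 0.30 for Myc, -0.015 to 0.038 for Met, -0.23 to -0.17 for Vegfa and -0.080 to 0.016 for Tert (0.016 without tumor 1). Tumors at 0.2 or more above the chromosome numbered 1 for Met and 1 for Tert. For Met this was 0 with the pattern subtracted, normexp, flanks, both flanks and subtraction, a threshold of 0.3, or tumor 1 left out (0 to 1 over the tumors left out). For Tert it was 0 with the pattern subtracted, probes within 0.25 Mb, the mean, spots well above background, flanks with subtraction, a threshold of 0.3, or tumor 3 left out (0 to 1), and 2 with normexp. At a threshold of 0.1 the counts were 1 for Myc, 2 for Egfr and 5 for Tert. Of the alternatives run on the main values, 224 kept their direction and their side of the threshold, 22 were no longer past it, 7 were newly past it, 15 turned direction and 17 counts moved by over 1.5 times. No paired analysis was possible because 1 group of tumors was set against 1 pool. Tumor signal was 4.17 to 6.56 times background and pool signal 4.27 to 11.1 times, which limits the precision of single probes.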
